A study of Mus musculus with 16 samples.

Results

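The knockout effects described here are those that depended on the oxygen level. All 16 of the 16 libraries entered the comparison, as a layout of 2 genotypes by 2 oxygen levels with 4 libraries in each of the 4 groups. The cells were a mouse acute myeloid leukemia line driven by the MLL-AF9 fusion and grown in RPMI with serum, IL-3 and SCF. In the knockout groups CRISPR-Cas9 was directed at MCT4, and the control groups carried a non-targeting gRNA. Cas9 had been switched on with 4-OHT in every group, controls included, before the cells were kept at 20% or 2% oxygen. The labels do not say whether replicates were separate cultures, whether the knockout was a pool or a clone, or how long the cells were at 2%, and p-values reflect only how these libraries varied, which may be technical variation. The interaction of a gene is its knockout log2 fold change at 2% oxygen minus that at 20%. A positive value means that the knockout raised the transcript more, or lowered it less, at 2% than at 20%.

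MCT4, encoded by Slc16a3, is a plasma membrane carrier that moves lactate out of the cell together with a proton. Its transcript is a known target of the hypoxia-inducible factor HIF-1, and cells at low oxygen rely more on glycolysis and make more lactate. MCT1, encoded by Slc16a1, carries lactate in either direction, and both need an accessory chain at the membrane, basigin (Bsg) or embigin (Emb). A knockout effect can therefore depend on oxygen in several forms. It can appear at 2%, vanish at 2%, turn its sign, or keep its sign and change its size.

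Promoters of 5 genes whose effects depended on oxygen in different ways are shown first, because the same short motifs recur in them while their transcripts moved in different directions. Each is the 250 bases before the RefSeq start on GRCm38.p6, written 5′ to 3′ on the gene's strand, with the E-box CACGTG and the amino acid response element TGATGNAA (or its reverse complement) in capitals. Slc16a1 lies at chr3:104638414-104638663 on the plus strand and Aars, the alanyl-tRNA synthetase, at chr8:111033592-111033841 on the plus strand, and both rose in the knockout at 2% and were not called at 20%. Slc7a11, the cystine carrier, lies at chr3:50443614-50443863 on the minus strand and rose at both levels. Nupr1, a stress-induced chromatin protein, lies at chr7:126625471-126625720 on the minus strand and fell at 2%. Mxd4, which pairs with Max and represses E-box genes, lies at chr5:34187711-34187960 on the minus strand and turned from higher at 20% to lower at 2%.
Slc16a1: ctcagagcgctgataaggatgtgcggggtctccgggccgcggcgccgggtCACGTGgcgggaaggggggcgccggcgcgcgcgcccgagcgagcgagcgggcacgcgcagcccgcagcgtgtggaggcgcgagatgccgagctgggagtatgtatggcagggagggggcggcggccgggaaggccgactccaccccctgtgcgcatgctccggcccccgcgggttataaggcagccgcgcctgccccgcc
Aars: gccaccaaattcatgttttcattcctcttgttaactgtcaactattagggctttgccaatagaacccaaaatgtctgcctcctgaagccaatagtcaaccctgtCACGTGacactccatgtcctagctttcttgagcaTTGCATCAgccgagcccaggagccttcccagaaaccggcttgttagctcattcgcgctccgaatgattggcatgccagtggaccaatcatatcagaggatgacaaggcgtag
Slc7a11: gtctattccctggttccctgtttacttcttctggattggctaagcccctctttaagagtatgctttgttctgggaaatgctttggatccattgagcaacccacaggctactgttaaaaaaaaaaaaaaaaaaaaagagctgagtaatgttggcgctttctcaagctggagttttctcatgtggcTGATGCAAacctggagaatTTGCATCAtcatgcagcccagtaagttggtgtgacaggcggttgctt
Nupr1: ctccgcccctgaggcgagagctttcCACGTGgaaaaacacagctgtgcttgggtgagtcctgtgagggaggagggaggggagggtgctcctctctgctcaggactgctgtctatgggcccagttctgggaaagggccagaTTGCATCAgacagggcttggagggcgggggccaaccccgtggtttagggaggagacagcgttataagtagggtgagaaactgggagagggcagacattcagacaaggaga
Mxd4: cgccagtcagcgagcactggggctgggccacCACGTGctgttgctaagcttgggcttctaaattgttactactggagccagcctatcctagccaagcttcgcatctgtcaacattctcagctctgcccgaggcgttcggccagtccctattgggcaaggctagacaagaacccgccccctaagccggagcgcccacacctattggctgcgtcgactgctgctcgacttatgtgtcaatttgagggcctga

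The E-box stood 200 bases before the start in Slc16a1, 146 in Aars, 225 in Nupr1 and 219 in Mxd4. The amino acid response element stood 112 bases before the start in Aars, 110 in Nupr1, and 66 and 47 in Slc7a11. Both motifs thus occurred in Aars, which rose at 2%, and in Nupr1, which fell. Over windows from 250 bases before to 50 after the start, searched on both strands, 9.96% of 12649 promoters of tested genes held the E-box (9920 genes matched a RefSeq promoter). Among genes that were higher in the knockout at 2% only it was 14.9% of 1185 windows, and among those lower at 2% only 8.82% of 1122. It was 19.0% of 58 windows for ribosome assembly genes and 25% of 16 for the list of cytosolic tRNA synthetases. The amino acid response element was in 2.39% of all windows, 31.3% of the synthetase windows and 26.5% of 49 windows of genes listed as Atf4 targets, and in 1.69% and 1.96% of the windows of genes higher and lower at 2% only. The hypoxia response core ACGTG, which lies within every E-box, was in 25.4% of all windows and in 49.0% of 51 windows of hypoxia-induced genes. It was also in 43.8% of synthetase, 36.7% of Atf4-target, 36.1% of ribosomal protein and 34.5% of ribosome assembly windows. Outside an E-box the core was in 17.3% of all windows and 37.3% of hypoxia-induced windows. For the other lists, in the same order, these shares were 25%, 22.4%, 27.8% and 17.2%. A match is a description of these letters and shows no binding.

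The knockout effect depended on oxygen for 3155 of 13774 genes tested, 22.9%, by edgeR's quasi-likelihood test of the interaction (Benjamini-Hochberg adjusted p under 0.05, 12 residual degrees of freedom). The interaction was positive for 1595 genes (11.6%) and negative for 1560 (11.3%). Most of these genes responded to the knockout at 2% oxygen and were not called at 20%. This held for 2370 genes, 75.1% of the 3155, of which 1254 were higher in the knockout at 2% (9.10% of all tested) and 1116 lower (8.10%). The reverse, a call at 20% and none at 2%, held for 294 genes, 156 higher (1.13%) and 138 lower (1.0%). The effect was called at both levels with opposite signs in 171 genes, 68 higher at 2% (0.494%) and 103 lower at 2% (0.748%). A further 85 genes moved the same way at both levels by unequal amounts, and 235 had a called interaction while neither effect was called. The knockout alone called 683 genes higher (4.96%) and 661 lower (4.80%) at 20%, against 2671 higher (19.4%) and 2624 lower (19.1%) at 2%. The median SE was nearly the same for both comparisons, 0.0598 at 20% and 0.0617 at 2%. Both SEs come from a single fit that shares each gene's variation across all groups, so they do not compare the spread at the levels.

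Most of these differences were small. The median interaction of the called genes was 0.29 in size on the log2 scale, and 386 of the 3155 exceeded 1.5-fold. A test against a minimum fold of 1.2 called 289 genes, 149 positive and 140 negative. The groups of 4 libraries did not overlap at 2% in 2215 of the 2370 genes called at 2% only, nor at 20% in 264 of the 294 called at 20% only. These genes were chosen by a call at that level, and over all 13774 genes tested the groups were apart for 5098 at 2% and for 2007 at 20%. Among the 171 genes of opposite sign, 121 had no overlap at either level. Over all 13774 genes tested 911 had none at either level, in the same or the opposite order, and 337 of these had a called interaction. Not being called at one level is not the same as no effect there. Of the 2370 genes called at 2% only, 1562 had fitted effects of opposite sign, as did 6121 of all 13774 genes tested. Choosing genes by a called interaction favours opposite signs, so this count does not show effects at 20%. The count of genes with opposite sign rested on single libraries. It was 97 without 20% knockout replicate 3, 108 without 20% knockout replicate 2 and 110 without 20% control replicate 3, and the count called at 20% only was 183 without 20% knockout replicate 3. No called gene changed the sign of its interaction in any alternative.

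**Figure D1:**
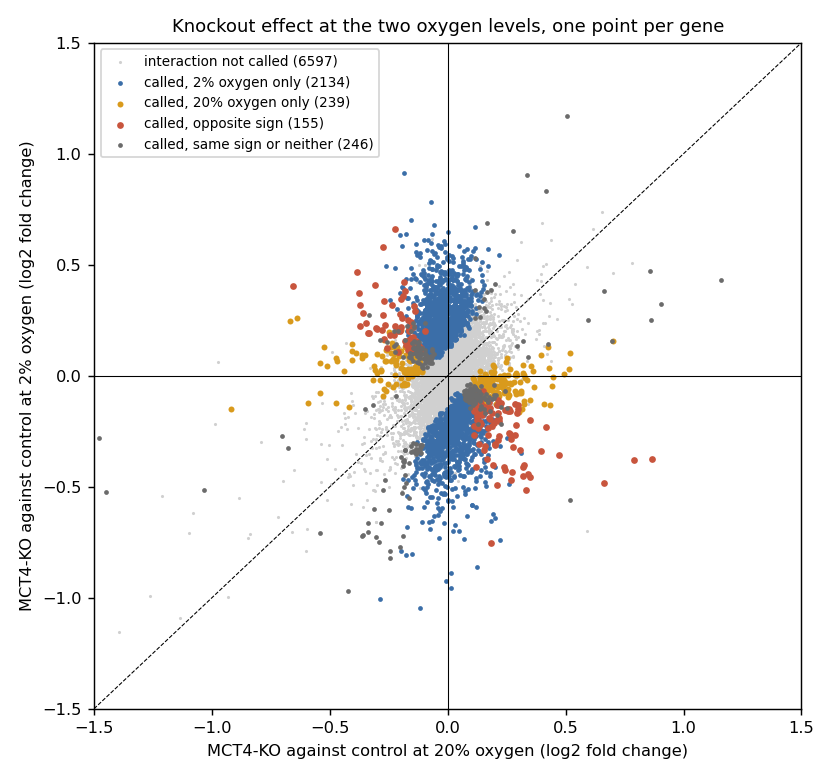
Each point is 1 gene whose average log2 CPM was 3 or higher, placed by its knockout log2 fold change at 20% oxygen (horizontal axis) and at 2% (vertical axis), and coloured by whether and how the effects differed. Blue points, called at 2% only, spread along the vertical axis, orange points, called at 20% only, along the horizontal axis, and red points of opposite sign fill the upper left and lower right corners. The dashed line marks equal effects, and 2 of 9373 genes lie outside the axes.

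Total estimated counts ran from 21192179 to 28871459, and the share of mitochondrially encoded genes was 0.750% ± 0.178 in controls and 0.720% ± 0.0671 in the knockout at 20% oxygen, against 0.298% ± 0.0442 and 0.379% ± 0.0358 at 2% (SD, n = 4). In 2% controls 8.001% to 8.17% of counts fell on the 10 highest genes of a library, against 7.03% to 7.26% in the 2% knockout, with no overlap. At 20% this share was 5.27% to 5.48% in controls and 5.17% to 5.42% in the knockout, and the part of this in the results was not tested. At 2% oxygen control replicate 4 stood apart from the other controls, and without it the interaction was called for 3339 genes. A chi-square between the counts of 2 libraries, averaged over genes, set it 8.61 to 12.9 from the other 2% controls. Libraries at 20% also differed, by up to 9.25 in controls and 7.72 in the knockout (replicates 1 and 3 in each). In the 2% knockout this distance was 1.77 to 2.81. The labels name no batch. The strand setting of the counting is not given, so genes that overlap another on either strand are uncertain, among those named here Col4a1 (with Col4a2), Nop56 (with Idh3b), Heatr1 (with Lgals8), Slc16a6 (with Amz2 and Arsg), Aars (with Exosc6), Prtn3 (with Plppr3), Prss57 (with Fstl3), Psmb9 (with Tap1), Plek (with Cnrip1) and Cp (with Hps3).

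The targeted transcript was checked first, with levels given for replicates 1 to 4 in CPM, counts relative to the library size as scaled by edgeR, and fold changes with their SE on the log2 scale. At 20% oxygen Slc16a3 read 235, 199, 184 and 222 CPM in the controls against 70.4, 72.4, 82.1 and 94.7 CPM in the knockout, and at 2% it read 789, 844, 809.7 and 804 CPM against 370.3, 369, 358 and 363 CPM. All knockout libraries lay below the controls at each level, and the transcript was lowered rather than absent. Its log2 fold change was -1.39 ± 0.075 at 20% and -1.15 ± 0.071 at 2%, and the difference of 0.24 ± 0.10 (95% interval 0.024 to 0.46) was not called (adjusted p = 0.104). That difference was called without 20% control replicate 3 (adjusted p = 0.0382), without 20% knockout replicate 4 (adjusted p = 0.0132) and with no filter on low counts (adjusted p = 0.0166). Where the guides cut is not given in the sources used here, so a transcript level does not measure the lost protein.

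Several other genes for the transport and handling of lactate, bicarbonate and protons were higher in the knockout at 2% oxygen and not called at 20%. On the whole list of 20 tested, 9 were higher and 7 lower in the knockout at 2%, beside 19.4% and 19.1% of all genes. Of 20 such genes tested, 7 had a positive interaction and 1 a negative one, against 11.6% and 11.3% of all genes. Slc16a1 (MCT1) had 169, 172, 177 and 159.7 CPM in the controls and 165, 161, 150.2 and 156 CPM in the knockout at 20% oxygen, with 80.4, 86.1, 82.4 and 87.4 CPM and 118, 111, 112 and 117 CPM at 2%. The 20% groups overlapped, while all knockout libraries at 2% lay above all controls there. The fitted effect went from -0.10 ± 0.038 at 20% to 0.45 ± 0.040 at 2% on the log2 scale, and the interaction was 0.55 ± 0.055 (adjusted p = 3.28e-06). Embigin (Emb) stood at 362, 377, 371 and 356 CPM in the controls and 376, 364, 363 and 362 CPM in the knockout at 20% oxygen, and at 454, 489.7, 475 and 482 CPM and 625, 592, 596 and 629 CPM at 2%. Its groups overlapped at 20% and were apart at 2%. On the log2 scale the effect was -0.0014 ± 0.032 at 20% and 0.36 ± 0.032 at 2%, which differed by 0.36 ± 0.046 (adjusted p = 2.30e-05). Slc16a6, a carrier of ketone bodies, had effects (log2 fold changes of the knockout, at 20% and then at 2% oxygen, here and in every such pair) of -0.14 and 0.59 and an interaction of 0.73 ± 0.069 (adjusted p = 2.25e-06). The carbonic anhydrase Car12 and the bicarbonate carrier Slc4a7 rose at 2% by 0.40 and 0.24, as did Slc16a13 by 0.21. The voltage-gated proton channel Hvcn1 differed in kind, since it fell by 0.26 at 20% and was not called at 2% (0.12). The single negative interaction was that of the carbonic anhydrase Car2 (0.043 and -0.59 at 20% and 2%), which read 0.907 CPM in 20% controls and 6.88 CPM in 2% controls. Calls of 3 of these genes were lost when single libraries were left out, here with the number of such fits among 16 and the highest adjusted p: Slc16a13 (8 of 16, up to adjusted p = 0.0768 without 2% knockout replicate 4, and also adjusted p = 0.0737 with no filter on low counts and 0.0728 in DESeq2), Slc4a7 (4 of 16, up to adjusted p = 0.0550 without 20% knockout replicate 3) and Car2 (8 of 16, up to adjusted p = 0.101 without 20% control replicate 3, and also adjusted p = 0.0760 with no filter on low counts, 0.0705 in DESeq2 and 0.0539 in limma-voom). Basigin had effects of -0.020 and -0.17 at 20% and 2%, and its interaction of -0.15 ± 0.063 was not called (adjusted p = 0.0864), though leaving out control replicate 1 at 20% (adjusted p = 0.0483), knockout replicate 1 at 20% (adjusted p = 0.0362) or control replicate 1 at 2% (adjusted p = 0.0475) brought it under the threshold.

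**Figure D2:**
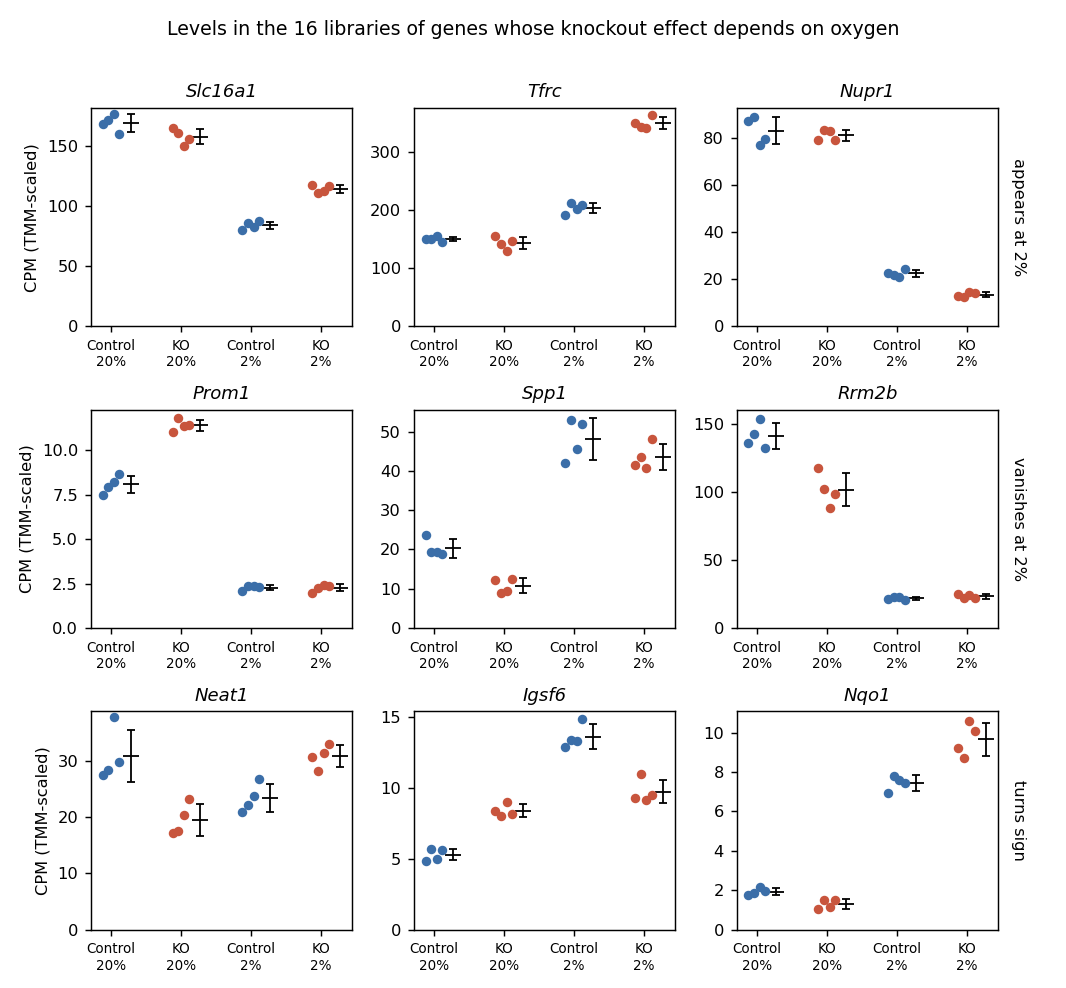
TMM-scaled CPM of 9 genes in the 16 libraries, with 1 point per library, controls in blue, knockout in red, and the mean ± SD (n = 4) beside each group, on axes that start at 0. The upper row shows effects that appear at 2% oxygen, the middle row effects that vanish there and the lower row effects that turn sign; in the lower row the red points switch sides of the blue ones between the oxygen levels.

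Most genes that build ribosomes were raised by the knockout at 2% oxygen, and most were not called at 20%. At 2% 54 of 62 ribosome assembly factors were higher and 3 lower, and at 20% 0 and 2, beside 19.4%, 19.1%, 4.96% and 4.80% of all genes in that order. Of 62 ribosome assembly factors tested, 53 had a positive interaction and 0 a negative one, against 11.6% and 11.3% of all genes. Their median log2 fold change was -0.059 at 20% and 0.28 at 2%, where all genes tested had medians of -0.0051 and -0.0040. Of the 53, 51 were called at 2% only, and Ppan and Nop56 were lower at 20% and higher at 2%. Tested against a minimum fold of 1.2, 17 of the 62 had a positive interaction. At 20% oxygen Nolc1, a nucleolar scaffold of small nucleolar ribonucleoproteins, read 167, 192, 209 and 182 CPM in the controls against 198, 186, 175 and 177 CPM in the knockout, and at 2% it read 87.9, 100.05, 94.4 and 87.4 CPM against 137, 135, 141 and 138 CPM. Levels overlapped at 20%, and at 2% each knockout library exceeded each control. Fitted log2 fold changes were -0.028 ± 0.056 at 20% and 0.58 ± 0.058 at 2%, and the interaction of 0.60 ± 0.081 had an adjusted p of 3.97e-05. Polr1b, a core subunit of RNA polymerase I, had 80.9, 87.0, 104 and 88.6 CPM in the controls and 93.6, 83.6, 80.6 and 85.2 CPM in the knockout at 20% oxygen, with 30.4, 35.1, 31.3 and 34.5 CPM and 47.2, 46.2, 47.1 and 47.4 CPM at 2%. The same order held, with overlap at 20% and none at 2%. Polr1b thus had a log2 fold change of -0.072 ± 0.061 at 20%, 0.52 ± 0.070 at 2% and an interaction of 0.59 ± 0.092 (adjusted p = 1.57e-04). Heatr1, a factor for rRNA transcription and processing, had effects of -0.078 and 0.51. Nop56, a core protein of box C/D ribonucleoproteins, stood at 347, 357, 359 and 338 CPM in the controls and 312, 317, 315 and 327 CPM in the knockout at 20% oxygen, and at 119, 133, 124 and 137 CPM and 167, 154, 161 and 156 CPM at 2%. The knockout lay below all controls at 20% and above all of them at 2%. In edgeR's fit Nop56 changed by -0.14 ± 0.040 at 20% and 0.31 ± 0.042 at 2% (log2 fold change), and the difference of 0.46 ± 0.058 had an adjusted p of 2.46e-05. Ppan had effects of -0.19 and 0.42 (interaction 0.61 ± 0.071, adjusted p = 1.18e-05), and its 20% groups overlapped.

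The proteins of the ribosome itself went the other way. Of 82 cytosolic ribosomal protein genes tested, 29 had a negative interaction and 1 a positive one, against 11.3% and 11.6% of all genes. At 2% oxygen 70 of them were lower in the knockout, and at 20% 4, beside 19.1% and 4.80% of all genes, with medians of -0.23 and -0.071. The differences were small, and against a minimum fold of 1.2 0 of the 82 had a negative interaction. The 1 positive gene was Rps27l, a paralog of Rps27, with 102 CPM in 2% controls and 121 in the 2% knockout and effects of -0.036 and 0.25 at 20% and 2%. Reads of ribosomal protein genes can be shared with their many pseudogenes, so single members are uncertain. At 20% oxygen Eef1a1, the elongation factor that delivers aminoacyl-tRNA, read 16803, 16832, 15463 and 16105 CPM in the controls against 15202, 15471, 16250.4 and 16260.5 CPM in the knockout, and at 2% it read 23427, 22650.5, 23534 and 24999 CPM against 18251, 18059.5, 17886 and 17451 CPM. The 20% groups overlapped and the 2% groups did not. The log2 fold change of Eef1a1 was -0.045 ± 0.035 at 20% against -0.40 ± 0.035 at 2%, with an interaction of -0.36 ± 0.049 (adjusted p = 5.12e-05). Among 46 translation factors as a whole 13 were positive and 9 negative, or 28.3% and 19.6%.

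Within the network of Myc, the transcription factor whose targets include ribosome assembly genes, Myc and Max were higher and the repressors Mxd4 and Mxd1 lower in the knockout at 2% oxygen. Of 16 genes tested 3 had a positive and 4 a negative interaction, 18.8% and 25% against 11.6% and 11.3% of all genes. Myc had 395, 401, 423 and 405 CPM in the controls and 438, 408, 386 and 404 CPM in the knockout at 20% oxygen, with 263, 295, 279 and 247 CPM and 368, 360.0, 366 and 371 CPM at 2%. Knockout and control overlapped at 20%, and at 2% the knockout was higher in every library. Its knockout log2 fold change was 0.010 ± 0.045 at 20% and 0.43 ± 0.046 at 2%, a difference of 0.42 ± 0.064 (adjusted p = 1.12e-04). Max, the partner of Myc, had effects of -0.050 and 0.26. Mxd4, a repressor that competes for Max, stood at 67.0, 67.0, 61.1 and 67.1 CPM in the controls and 75.02, 71.3, 74.3 and 78.9 CPM in the knockout at 20% oxygen, and at 78.8, 68.2, 75.5 and 76.3 CPM and 55.2, 59.7, 57.1 and 53.9 CPM at 2%. All knockout libraries were above the controls at 20% and below them at 2%. The fitted effect went from 0.19 ± 0.047 at 20% to -0.40 ± 0.048 at 2% on the log2 scale, and the interaction was -0.60 ± 0.067 (adjusted p = 7.84e-06). Mxd1, a repressor of the same family, had effects of 0.18 and -0.32 and an interaction of -0.50 ± 0.089 (adjusted p = 4.53e-04), with no overlap at 2%.

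Most genes on the list of cytosolic tRNA synthetases were raised by the knockout at 2% oxygen. There 18 of 23 were higher and 2 lower, beside 19.4% and 19.1% of all genes. At 20% 0 were higher and 1 lower, beside 4.96% and 4.80%. Of the 23 genes on this list 15 had a positive interaction and 2 (Aimp1 and Qars) a negative one, against 11.6% and 11.3% of all genes. Tested against a minimum fold of 1.2, 1 of the 23 had a positive interaction and 0 a negative one. The median effect of the 23 was -0.026 at 20% and 0.22 at 2%. At 20% oxygen Aars read 649, 702, 715 and 698 CPM in the controls against 698, 672, 653 and 643 CPM in the knockout, and at 2% it read 273, 302, 274 and 292 CPM against 354, 339, 349 and 347 CPM. At 20% the groups overlapped, and at 2% they did not. On the log2 scale the effect was -0.052 ± 0.038 at 20% and 0.28 ± 0.039 at 2%, which differed by 0.34 ± 0.055 (adjusted p = 2.21e-04). Wars, the tryptophanyl-tRNA synthetase, had 367, 415, 408 and 383 CPM in the controls and 367, 334, 333 and 339.7 CPM in the knockout at 20% oxygen, with 95.9, 111, 107 and 94.3 CPM and 129, 123, 133 and 132 CPM at 2%. It was below the controls in all knockout libraries at 20%, narrowly for the highest of them, and above the controls in all at 2%. Fitted log2 fold changes were -0.20 ± 0.049 at 20% and 0.35 ± 0.052 at 2%, and the interaction of 0.54 ± 0.072 had an adjusted p of 3.73e-05. Genes listed as targets of Atf4, the transcription factor of the amino acid response, had 17 positive and 4 negative interactions among 45 (37.8% and 8.89%). At 2% 22 of the 45 were higher and 6 lower in the knockout, beside 19.4% and 19.1% of all genes. At 20% these counts were 4 and 5, beside 4.96% and 4.80%. Tested against a minimum fold of 1.2, 3 of the 45 had a positive and 1 a negative interaction. Cth, which makes cysteine from cystathionine, had effects of 0.0030 and 0.43. Nupr1 stood at 87.2, 88.8, 76.9 and 79.5 CPM in the controls and 79.0, 83.2, 82.9 and 79.2 CPM in the knockout at 20% oxygen, and at 22.7, 21.7, 20.8 and 24.5 CPM and 12.9, 12.5, 14.4 and 14.3 CPM at 2%. The knockout was below every control at 2%, while the 20% groups overlapped. Nupr1 thus had a log2 fold change of -0.035 ± 0.049 at 20%, -0.73 ± 0.068 at 2% and an interaction of -0.69 ± 0.084 (adjusted p = 1.60e-05). The other negative ones among the Atf4 targets were Mthfd1l, Vldlr and Atf5. Calls of Atf5, and of Aimp1 and Qars from the synthetase list, were lost when single libraries were left out: Atf5 (9 of 16, up to adjusted p = 0.102 without 2% control replicate 2, and also adjusted p = 0.0564 when scaled by library size), Aimp1 (3 of 16, up to adjusted p = 0.0523 without 2% knockout replicate 2) and Qars (7 of 16, up to adjusted p = 0.0722 without 2% knockout replicate 4, and also adjusted p = 0.0726 when scaled by library size and 0.0730 with no filter on low counts).

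Serine, glycine and folate enzymes had 9 positive and 2 negative interactions among 21, and purine and pyrimidine synthesis 14 and 4 among 32. Over all genes tested 11.6% were positive and 11.3% negative. At 20% oxygen Mat2a, which makes S-adenosylmethionine, read 157, 159.7, 174 and 148 CPM in the controls against 157, 137, 126 and 146 CPM in the knockout, and at 2% it read 45.9, 51.7, 48.5 and 54.9 CPM against 81.5, 78.7, 76.8 and 75.2 CPM. The groups overlapped at 20% and were apart at 2%. In edgeR's fit Mat2a changed by -0.18 ± 0.059 at 20% and 0.64 ± 0.065 at 2% (log2 fold change), and the difference of 0.81 ± 0.088 had an adjusted p of 6.19e-06. Among genes for iron, 6 of 18 tested were positive and 1 negative. Tfrc, the transferrin receptor that takes up iron, had 149.9, 151, 156 and 146 CPM in the controls and 155, 142, 130.1 and 147 CPM in the knockout at 20% oxygen, with 191, 212, 201 and 209 CPM and 351, 342, 341 and 364 CPM at 2%. All knockout libraries at 2% exceeded all controls, and those at 20% did not separate. The log2 fold change of Tfrc was -0.070 ± 0.045 at 20% against 0.78 ± 0.044 at 2%, with an interaction of 0.85 ± 0.063 (adjusted p = 1.94e-07). Tfrc was 1.72-fold higher in the knockout at 2%.

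Lists for splicing and protein quality held more positive than negative interactions, where all genes tested had 11.6% and 11.3%. Of 21 SR splicing factors and Clk kinases 11 had a positive interaction and 0 a negative one, and among these Srsf5 turned from -0.27 at 20% to 0.17 at 2%, as did Srpk1 in sign. Of 41 proteasome subunits 15 were positive and 2 negative. The negative ones, Psmb9 and Psmb10, are catalytic subunits of the immunoproteasome. Psmb9 had 51.1 ± 6.50 CPM in 2% controls and 44.0 ± 1.22 in the 2% knockout (SD, n = 4), with effects of 0.18 and -0.21 at 20% and 2%. Psmb10 had effects of 0.094 and -0.15, neither of them called, and its interaction call was lost in 10 of the 16 fits that left out a library (up to adjusted p = 0.0692 without 2% knockout replicate 2). Heat shock proteins had 9 positive and 1 negative interaction among 23, the negative one being the abundant chaperone Hsp90ab1 (0.065 and -0.10).

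Among genes with a mean log2 CPM of 3 or more and an established name, the largest effects that appeared at 2% oxygen were in genes of several roles. Thbs1 (thrombospondin-1, a matrix glycoprotein) stood at 80.1, 59.6, 67.0 and 79.1 CPM in the controls and 60.9, 60.9, 57.1 and 72.3 CPM in the knockout at 20% oxygen, and at 9.16, 9.24, 9.19 and 7.68 CPM and 15.1, 16.5, 17.4 and 17.4 CPM at 2%. Its groups overlapped at 20%, where its level was several times that at 2%, and separated at 2%. Its knockout log2 fold change was -0.19 ± 0.080 at 20% and 0.91 ± 0.12 at 2%, a difference of 1.10 ± 0.15 (adjusted p = 3.50e-05). Abi2, an actin regulator, had effects of -0.16 and 0.70, Dus4l, a tRNA dihydrouridine synthase, -0.20 and 0.63, and Mdn1, an ATPase of ribosome assembly, -0.26 and 0.49, with 2% groups that overlapped for Mdn1 alone. At 20% oxygen Pde9a, a phosphodiesterase of cyclic GMP, read 6.23, 6.14, 5.07 and 5.97 CPM in the controls against 5.13, 5.06, 5.96 and 5.45 CPM in the knockout, and at 2% it read 20.7, 19.0, 20.3 and 20.8 CPM against 9.58, 9.44, 10.4 and 9.58 CPM. In the knockout at 2% every library lay below every control. The fitted effect went from -0.12 ± 0.078 at 20% to -1.05 ± 0.062 at 2% on the log2 scale, and the interaction was -0.93 ± 0.10 (adjusted p = 5.51e-06). Il1r2, a decoy receptor for interleukin 1, had 3.33, 2.99, 1.96 and 3.21 CPM in the controls and 2.52, 3.03, 2.68 and 3.43 CPM in the knockout at 20% oxygen, with 43.9, 49.2, 47.5 and 44.4 CPM and 26.0, 25.5, 23.3 and 25.1 CPM at 2%. The 20% groups overlapped at a low level, and the 2% groups were apart. On the log2 scale the effect was 0.014 ± 0.14 at 20% and -0.89 ± 0.067 at 2%, which differed by -0.90 ± 0.15 (adjusted p = 2.88e-04). Sgsm1, a GTPase-activating protein, had effects of 0.13 and -0.86, the methyltransferase gene Mettl18 0.014 and -0.96 and the zinc finger gene Zfp773 -0.0076 and -0.92. The pseudogene Rps13-ps2 was called (0.22 and -0.74), but its 2% groups overlapped and its interaction call was lost when scaled by library size (adjusted p = 0.0566), in DESeq2 (adjusted p = 0.0834), limma-voom (adjusted p = 0.0540) and in 11 of the 16 fits that left out a library (up to adjusted p = 0.112 without 20% knockout replicate 3).

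Among genes induced by hypoxia, Selenbp1, Ndrg1 and Ccng2 had negative interactions. Of 48 such genes tested outside glycolysis, 26 were lower and 3 higher in the knockout at 2% oxygen, beside 19.1% and 19.4% of all genes. At 20% 14 were already lower and 1 higher, beside 4.80% and 4.96%. Among the 48, 10 had a negative and 4 a positive interaction, or 20.8% and 8.33% against 11.3% and 11.6% of all genes. The median interaction of the list was nevertheless 0.030. Leaving out single libraries changed the count of positive ones to 2 (20% control replicate 1, 20% knockout replicates 1 and 2, 2% control replicate 3, and 2% knockout replicates 1 and 3) or 8 (20% knockout replicate 4), and with no filter on low counts it was 10. Selenbp1, a selenium-binding methanethiol oxidase, stood at 41.3, 34.5, 32.5 and 42.3 CPM in the controls and 34.0, 35.9, 40.0 and 42.9 CPM in the knockout at 20% oxygen, and at 1669, 1807, 1714 and 1899.5 CPM and 1216, 1133, 1144 and 1208 CPM at 2%. It was far higher at 2% in both genotypes, and there every knockout library was below every control. Fitted log2 fold changes were 0.022 ± 0.079 at 20% and -0.59 ± 0.065 at 2%, and the interaction of -0.61 ± 0.10 had an adjusted p of 2.62e-04. Ndrg1 fell at both levels, by 0.19 and 0.53, while Ccng2, an unconventional cyclin, had effects of -0.065 and -0.55. At 20% oxygen Vhl, which marks hydroxylated HIF for degradation, read 52.1, 49.9, 47.3 and 53.6 CPM in the controls against 48.5, 49.2, 51.8 and 52.9 CPM in the knockout, and at 2% it read 52.9, 54.6, 52.8 and 58.4 CPM against 37.6, 41.1, 39.0 and 36.9 CPM. No knockout library at 2% reached the controls. Vhl thus had a log2 fold change of -0.0033 ± 0.046 at 20%, -0.50 ± 0.048 at 2% and an interaction of -0.50 ± 0.067 (adjusted p = 3.97e-05). Egln1, the prolyl hydroxylase that senses oxygen, had effects of 0.024 and -0.22, and Hif1a itself 0.00078 and 0.21 (interaction 0.21 ± 0.063, adjusted p = 0.0202). A separate list of HIF subunits and hydroxylases had 9 tested genes, 1 with a positive interaction and 2 with a negative one. These were 11.1% and 22.2%, against 11.6% and 11.3% of all genes.

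Some genes of NF-kB feedback, autophagy and cell survival were lower in the knockout at 2% oxygen and not at 20%. Of 20 inflammatory and feedback genes 4 had a negative interaction and 0 a positive one, against 11.3% and 11.6% of all genes. The 4 were Nfkbia, Ccl9, Ccrl2 and Tnfaip3, and the count was 2 without 2% control replicate 3 and in DESeq2. Nfkbia, the inhibitor that holds NF-kB in the cytoplasm, had 47.1, 46.1, 42.6 and 46.8 CPM in the controls and 42.9, 41.1, 45.0 and 45.4 CPM in the knockout at 20% oxygen, with 67.2, 62.5, 65.7 and 69.6 CPM and 41.9, 41.9, 42.6 and 42.3 CPM at 2%. Only the 2% groups were apart. In edgeR's fit Nfkbia changed by -0.068 ± 0.042 at 20% and -0.65 ± 0.042 at 2% (log2 fold change), and the difference of -0.58 ± 0.059 had an adjusted p of 3.28e-06. Among 28 autophagy and mitophagy genes 7 were negative and 1 positive (25% and 3.57%). Pink1, the kinase that marks damaged mitochondria, stood at 109, 112, 98.5 and 106 CPM in the controls and 101, 102, 106 and 102 CPM in the knockout at 20% oxygen, and at 237, 208, 219 and 228 CPM and 159, 159, 154 and 153 CPM at 2%. Overlap was again limited to 20%. The log2 fold change of Pink1 was -0.051 ± 0.043 at 20% against -0.51 ± 0.041 at 2%, with an interaction of -0.46 ± 0.059 (adjusted p = 2.90e-05). The autophagy kinase Ulk1 had effects of 0.061 and -0.21 and the receptor Calcoco1 -0.052 and -0.32. In the BCL2 family 5 of 18 were negative, both protective members (Mcl1, -0.013 and -0.24, and Bcl2l2, -0.017 and -0.29) and death-promoting ones (Bmf, -0.051 and -0.36, Bcl2l11, 0.14 and -0.21, and Pmaip1, 0.072 and -0.086), while the protective Bcl2l1 was the 1 positive gene (0.024 and 0.22). Single libraries decided the calls of Bcl2l1 (13 of 16, up to adjusted p = 0.0890 without 2% control replicate 1), Pmaip1 (2 of 16, up to adjusted p = 0.0573 without 2% knockout replicate 4, and also adjusted p = 0.0531 when scaled by library size and 0.101 with no filter on low counts), Ccrl2 (7 of 16, up to adjusted p = 0.0841 without 20% control replicate 2, and also adjusted p = 0.0852 with no filter on low counts and 0.0678 in DESeq2) and Tnfaip3 (12 of 16, up to adjusted p = 0.118 without 20% control replicate 1, and also adjusted p = 0.0605 when scaled by library size, 0.0501 with no filter on low counts, 0.0576 in DESeq2 and 0.0737 in limma-voom).

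**Figure D3:**
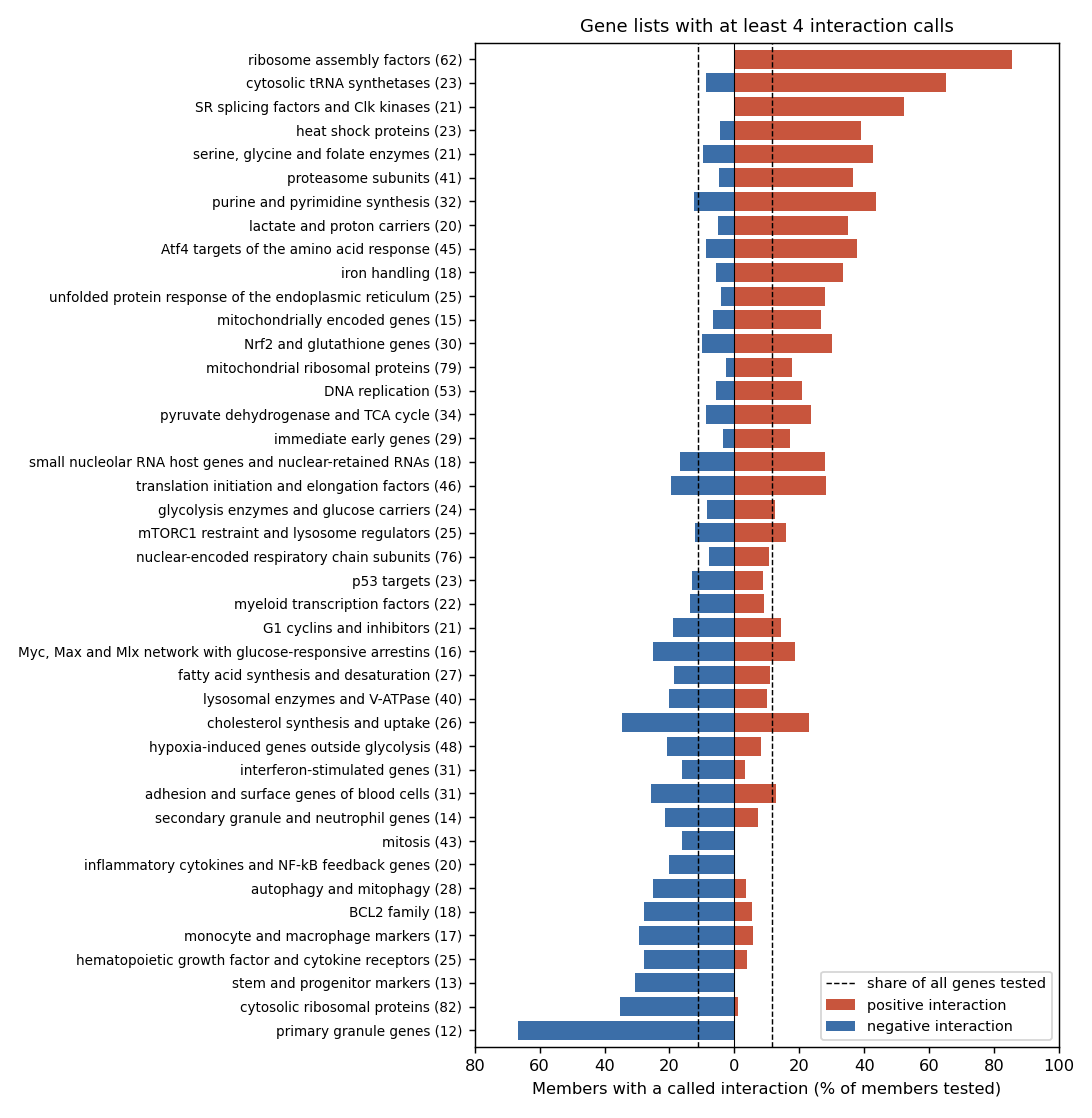
For each gene list with at least 4 interaction calls and at least 11 tested members (number tested in parentheses), bars give the percent of tested members with a positive interaction (red, right) and a negative one (blue, left). Dashed lines mark the shares over all genes tested, 11.6% and 11.3%; the bars are longest for ribosome assembly factors to the right and for primary granule genes to the left.

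Effects that vanished at 2% oxygen were fewer. Spp1, Lcn2 and Rrm2b were lowered by the knockout at 20% alone. At 20% oxygen Spp1 (osteopontin) read 23.8, 19.3, 19.3 and 18.8 CPM in the controls against 12.2, 8.91, 9.34 and 12.5 CPM in the knockout, and at 2% it read 41.9, 52.9, 45.5 and 52.0 CPM against 41.5, 43.4, 40.7 and 48.1 CPM. The knockout libraries lay below all controls at 20% and overlapped them at 2%. Its knockout log2 fold change was -0.92 ± 0.11 at 20% and -0.15 ± 0.089 at 2%, a difference of 0.77 ± 0.14 (adjusted p = 6.33e-04). Rrm2b, the p53-inducible subunit of ribonucleotide reductase, had 136, 142, 154 and 132 CPM in the controls and 117, 102, 87.8 and 98.5 CPM in the knockout at 20% oxygen, with 21.4, 23.1, 22.7 and 20.8 CPM and 25.1, 21.8, 24.1 and 21.9 CPM at 2%. Again only the 20% groups were apart. The fitted effect went from -0.47 ± 0.065 at 20% to 0.082 ± 0.086 at 2% on the log2 scale, and the interaction was 0.56 ± 0.11 (adjusted p = 9.38e-04). Ccdc80, a matrix-associated protein, stood at 133, 128, 132 and 124 CPM in the controls and 94.1, 86.6, 78.9 and 99.6 CPM in the knockout at 20% oxygen, and at 110.1, 117, 113 and 116 CPM and 118, 129, 121 and 131 CPM at 2%. Its groups did not overlap at either level and lay in opposite orders, although the 2% effect was not called (adjusted p = 0.0592). On the log2 scale the effect was -0.52 ± 0.053 at 20% and 0.13 ± 0.053 at 2%, which differed by 0.66 ± 0.076 (adjusted p = 1.07e-05). Lcn2, the iron-carrier-binding lipocalin of neutrophils, had effects of -0.54 and 0.057, and the receptor Lilrb4a -0.64 and 0.26. Cp, the copper ferroxidase ceruloplasmin, had effects of -0.67 and 0.25, but its interaction call was lost in limma-voom (adjusted p = 0.104) and in 10 of the 16 fits that left out a library (up to adjusted p = 0.0932 without 2% knockout replicate 4).

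Genes raised at 20% alone included Rassf4, a member of the Ras association domain family. At 20% oxygen Rassf4 read 17.7, 16.3, 15.7 and 19.4 CPM in the controls against 22.2, 24.5, 24.0 and 22.8 CPM in the knockout, and at 2% it read 49.96, 42.0, 44.8 and 45.0 CPM against 39.5, 44.7, 41.1 and 40.4 CPM. Its 20% groups were apart and its 2% groups overlapped. Fitted log2 fold changes were 0.43 ± 0.068 at 20% and -0.13 ± 0.059 at 2%, and the interaction of -0.57 ± 0.090 had an adjusted p of 1.67e-04. Spns3, a carrier-like membrane protein, had effects of 0.41 and -0.13, Stard8, a START domain protein, 0.49 and 0.0066, and Deptor, which binds and restrains mTOR, 0.51 and 0.030, whose call was lost in 2 of the 16 fits that left out a library (up to adjusted p = 0.0513 without 20% knockout replicate 2). Prom1 (CD133), a surface protein of stem and progenitor cells, had 7.497, 7.94, 8.23 and 8.66 CPM in the controls and 11.04, 11.8, 11.4 and 11.4 CPM in the knockout at 20% oxygen, with 2.07, 2.37, 2.36 and 2.29 CPM and 1.99, 2.27, 2.41 and 2.37 CPM at 2%. Knockout libraries were above the controls at 20% and mixed with them at a lower level at 2%. Prom1 thus had a log2 fold change of 0.50 ± 0.064 at 20%, -0.0043 ± 0.10 at 2% and an interaction of -0.50 ± 0.12 (adjusted p = 0.0104). Of 13 stem and progenitor markers 4 had a negative and 0 a positive interaction, against 11.3% and 11.6% of all genes. The negative count was 7 without 2% control replicate 4. Cd48 was higher at 20% alone (0.43 and 0.13), Cd34 lower at 2% alone (-0.13 and -0.40), and the receptor kinase Flt3 turned sign (0.20 and -0.31).

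Cholesterol genes split between both kinds. Of 26 tested, 6 had a positive and 9 a negative interaction, against 11.6% and 11.3% of all genes. The negative count was 5 without 20% knockout replicate 4. In 5 the rise at 20% vanished at 2%: Fdps (0.24 and -0.075 at 20% and 2%), Nsdhl (0.33 and -0.0080), Mvd (0.21 and -0.052), Stard4 (0.14 and -0.023) and Acat2 (0.16 and 0.00034). Other enzymes of the same pathway rose at 2% alone, among them Hsd17b7 (-0.066 and 0.48) and Sqle, squalene epoxidase (-0.054 and 0.27). Insig1, which restrains SREBP, fell at 2% alone (0.053 and -0.22). All of these stood higher at 2% than at 20% in controls, for example Fdps at 519 ± 32.0 against 84.4 ± 5.46 CPM and Sqle at 145 ± 2.85 against 76.7 ± 3.81 CPM (SD, n = 4). Single libraries decided the calls of Mvd (2 of 16, up to adjusted p = 0.0586 without 20% knockout replicate 3), Stard4 (11 of 16, up to adjusted p = 0.0856 without 20% control replicate 2, and also adjusted p = 0.0922 when scaled by library size and 0.0702 with no filter on low counts) and Acat2 (10 of 16, up to adjusted p = 0.104 without 20% knockout replicate 4, and also adjusted p = 0.0851 when scaled by library size and 0.125 with no filter on low counts).

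The list of primary granule genes holds proteases and the peroxidase of promyelocytes and neutrophils. It also holds other genes, among them Cst7, Ms4a3, Nkg7 and the receptor gene Igsf6. These genes were mostly raised by the knockout at 20% oxygen (8 of 12 higher and 1 lower, beside 4.96% and 4.80% of all genes). At 2% oxygen 2 were higher and 6 lower, beside 19.4% and 19.1% of all genes. Of the 12, 8 (Igsf6 included) had a negative interaction and 0 a positive one, against 11.3% and 11.6% of all genes. The median effect of the 12 was 0.27 at 20% and -0.088 at 2%. In bulk RNA, fewer cells of a type and less RNA per cell cannot be told apart. Mpo (myeloperoxidase) stood at 127, 138, 129.6 and 159 CPM in the controls and 275, 316, 345 and 302 CPM in the knockout at 20% oxygen, and at 323, 362, 336 and 295 CPM and 458, 409, 469.8 and 439 CPM at 2%. The knockout exceeded all controls at both levels, by more at 20%. In edgeR's fit Mpo changed by 1.16 ± 0.074 at 20% and 0.43 ± 0.072 at 2% (log2 fold change), and the difference of -0.73 ± 0.10 had an adjusted p of 6.75e-05. At 20% oxygen Elane (neutrophil elastase) read 689.7, 711, 647 and 723 CPM in the controls against 748, 809, 891 and 856 CPM in the knockout, and at 2% it read 3597, 3859, 3843 and 3876 CPM against 3746, 3496, 3636 and 3663 CPM. Knockout libraries were above the controls at 20% and overlapped them at 2%. The log2 fold change of Elane was 0.25 ± 0.046 at 20% against -0.062 ± 0.046 at 2%, with an interaction of -0.32 ± 0.065 (adjusted p = 0.00160). Cst7 (cystatin F, an inhibitor of granule proteases) had 31.5, 29.6, 29.1 and 31.8 CPM in the controls and 34.1, 37.5, 39.7 and 36.5 CPM in the knockout at 20% oxygen, with 128, 127, 128 and 127 CPM and 105, 100.3, 105 and 97.4 CPM at 2%. The order of the groups was opposite at the 2 levels, with no overlap at either. Its knockout log2 fold change was 0.28 ± 0.046 at 20% and -0.32 ± 0.039 at 2%, a difference of -0.60 ± 0.061 (adjusted p = 3.28e-06). Prtn3 (proteinase 3) also turned sign (0.24 and -0.16), Prss57 (0.44 and -0.046) and Nkg7 (0.70 and 0.16) were higher at 20% alone, and Ms4a3 was lower at 2% alone (0.13 and -0.22). The summed level of the list ran from 3291 to 3693 CPM in 20% controls and 3589.6 to 4036 in the 20% knockout, against 6607 to 6961 and 6416 to 6824 at 2%.

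**Figure D4:**
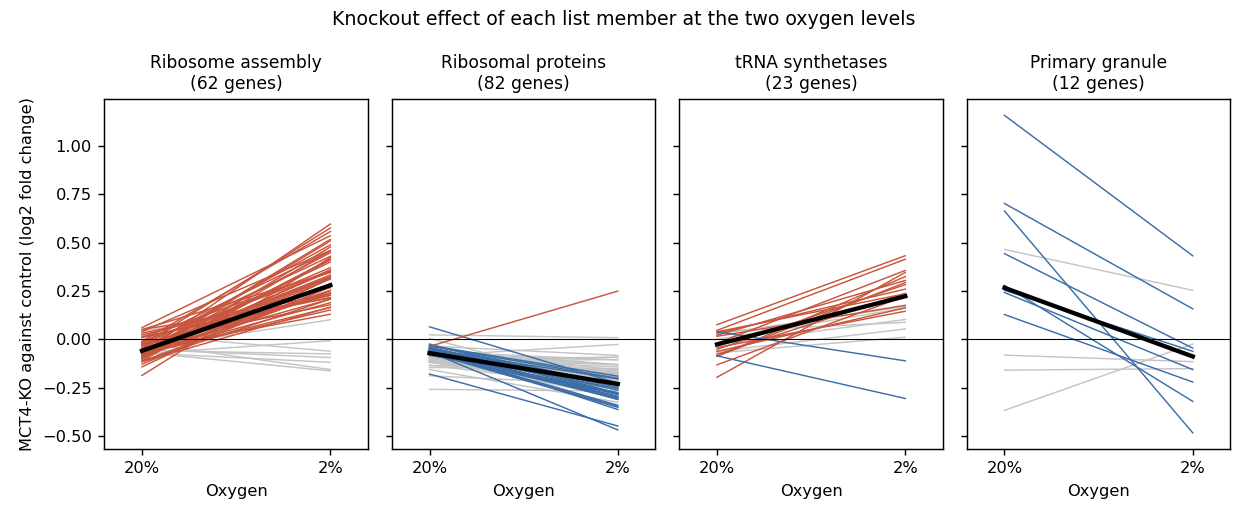
Knockout log2 fold change at 20% and at 2% oxygen of every tested member of 4 lists, with 1 line per gene (red, positive interaction called; blue, negative interaction called; grey, not called) and the list's median in black. Ribosome assembly lines rise from near 0, most ribosomal protein lines fall, and primary granule lines fall from above 0 at 20%.

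Markers of other cell types were read against 11.6% positive and 11.3% negative interactions over all genes. Monocyte and macrophage markers had 5 negative and 1 positive interactions among 17, 29.4% negative (3 genes when scaled by library size). Of these 17, 7 were higher and 1 lower in the knockout at 20% oxygen, beside 4.96% and 4.80% of all genes. At 2% 8 were higher and 2 lower, beside 19.4% and 19.1%. Their median effect was 0.36 at 20% and 0.25 at 2%. F13a1, the transglutaminase of monocytes and platelets, rose at both levels by 0.86 and 0.25. Secondary granule genes had 3 negative and 1 positive interactions among 14, 21.4% negative (5 genes without 20% control replicate 4 or without 2% control replicate 1). Of 14 erythroid markers 1 exceeded 1 CPM and of 10 megakaryocyte markers 2 did, with summed levels of 1.89 to 5.80 and 1.43 to 14.9 CPM over the 16 libraries. No tested erythroid (4 of 14), megakaryocyte (5 of 10), mast cell (5 of 11), eosinophil (1 of 9) or T and NK cell (1 of 12) marker had a called interaction. With so few tested, this shows little about these cell types. Of 2 B cell markers tested Ighm (the heavy chain of IgM) had a negative interaction, and of 3 stromal and endothelial markers Pecam1 (CD31, also carried by many blood cells) did, at 0.045 and -0.20 for Ighm and 0.017 and -0.16 for Pecam1 at 20% and 2%. Dendritic cell markers, whose 1 called member Flt3 is also a progenitor gene, summed to 84.0 to 86.9 CPM in 20% controls, 96.7 to 102 in the 20% knockout, 66.8 to 72.6 in 2% controls and 70.0 to 74.1 in the 2% knockout. The part of other cell types in the results was not tested.

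Under the same limit on level and name, effects that turned sign were led by Neat1 among genes that became higher at 2% oxygen and by Adgrd1 and Igsf6 among those that became lower. Neat1, the nuclear RNA that builds paraspeckles, stood at 27.6, 28.4, 37.7 and 29.9 CPM in the controls and 17.1, 17.5, 20.3 and 23.2 CPM in the knockout at 20% oxygen, and at 20.96, 22.1, 23.8 and 26.8 CPM and 30.8, 28.3, 31.5 and 33.0 CPM at 2%. Knockout libraries were below all controls at 20% and above all of them at 2%. The fitted effect went from -0.65 ± 0.10 at 20% to 0.40 ± 0.10 at 2% on the log2 scale, and the interaction was 1.06 ± 0.14 (adjusted p = 4.03e-05). Of the nuclear or noncoding RNAs on its list, Rn7sk and Malat1 fell at 20% (-0.67 and -0.41) and were not called at 2% (0.26 and 0.11), while Snhg17 turned sign (-0.20 and 0.28). The interaction call of Malat1 was lost in 10 of the 16 fits that left out a library (up to adjusted p = 0.0708 without 2% control replicate 2). At 20% oxygen Col4a1, a basement membrane collagen, read 144, 163, 167 and 143 CPM in the controls against 138, 116, 104 and 115 CPM in the knockout, and at 2% it read 12.8, 16.5, 14.8 and 15.7 CPM against 21.1, 18.3, 21.2 and 22.1 CPM. At 2% it was lower by about an order of magnitude in controls and several times in the knockout. Its groups were apart at both levels. On the log2 scale the effect was -0.38 ± 0.072 at 20% and 0.47 ± 0.10 at 2%, which differed by 0.85 ± 0.13 (adjusted p = 9.48e-05). The remaining genes of the 6 largest were Coq10b (-0.27 and 0.58), needed for coenzyme Q function, the cytochrome P450 Cyp2a5 (-0.38 and 0.37), the Rab GTPase-activating protein Tbc1d16 (-0.31 and 0.41) and the zinc and iron carrier Slc39a14 (-0.37 and 0.32).

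Igsf6, an immunoglobulin-type receptor of myeloid cells, had 4.88, 5.68, 5.02 and 5.60 CPM in the controls and 8.39, 8.02, 9.04 and 8.17 CPM in the knockout at 20% oxygen, with 12.9, 13.4, 13.3 and 14.9 CPM and 9.32, 10.98, 9.17 and 9.53 CPM at 2%. All knockout libraries were above the controls at 20% and below them at 2%. Fitted log2 fold changes were 0.66 ± 0.080 at 20% and -0.48 ± 0.070 at 2%, and the interaction of -1.15 ± 0.11 had an adjusted p of 1.64e-06. Adgrd1, an adhesion G protein-coupled receptor, stood at 2.14, 1.30, 1.87 and 2.09 CPM in the controls and 2.87, 3.22, 3.93 and 3.43 CPM in the knockout at 20% oxygen, and at 24.5, 23.9, 21.1 and 18.6 CPM and 17.0, 16.3, 17.4 and 17.3 CPM at 2%. Levels were low at 20%, and the groups were apart at both levels in opposite order. Adgrd1 thus had a log2 fold change of 0.87 ± 0.16 at 20%, -0.38 ± 0.083 at 2% and an interaction of -1.24 ± 0.18 (adjusted p = 6.61e-05). At 20% oxygen Pik3ip1, an inhibitor of PI3 kinase, read 15.2, 16.3, 14.8 and 14.9 CPM in the controls against 15.6, 17.6, 17.3 and 18.9 CPM in the knockout, and at 2% it read 82.6, 78.7, 86.5 and 80.2 CPM against 50.1, 46.7, 49.8 and 47.9 CPM. At 20% the groups overlapped although the rise was called, and at 2% they did not overlap. In edgeR's fit Pik3ip1 changed by 0.18 ± 0.057 at 20% and -0.75 ± 0.044 at 2% (log2 fold change), and the difference of -0.94 ± 0.072 had an adjusted p of 1.94e-07. Tifa, an adaptor that activates NF-kB through TRAF6, had effects of 0.33 and -0.51, Mlph (melanophilin) 0.47 and -0.36 and Btnl9, a butyrophilin-like protein, 0.35 and -0.46.

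Targets of Nrf2, the transcription factor of the oxidative stress response, held 3 genes that turned sign the same way. Of 30 genes tested on the list 9 had a positive and 3 a negative interaction, or 30% and 10% against 11.6% and 11.3% of all genes. Nqo1, the quinone reductase, had 1.75, 1.84, 2.18 and 1.98 CPM in the controls and 1.04, 1.52, 1.18 and 1.49 CPM in the knockout at 20% oxygen, with 6.91, 7.82, 7.59 and 7.45 CPM and 9.24, 8.71, 10.6 and 10.1 CPM at 2%. It was lower in the knockout in all libraries at 20%, at a low level, and higher in all at 2%. The log2 fold change of Nqo1 was -0.55 ± 0.14 at 20% against 0.38 ± 0.087 at 2%, with an interaction of 0.93 ± 0.17 (adjusted p = 4.63e-04). Srxn1 (sulfiredoxin) stood at 28.1, 30.3, 28.3 and 28.03 CPM in the controls and 23.9, 23.7, 24.5 and 23.8 CPM in the knockout at 20% oxygen, and at 24.2, 25.04, 25.8 and 25.3 CPM and 27.3, 27.3, 27.4 and 27.5 CPM at 2%. Its groups showed the same reversal with no overlap. Its knockout log2 fold change was -0.26 ± 0.038 at 20% and 0.13 ± 0.039 at 2%, a difference of 0.38 ± 0.055 (adjusted p = 6.61e-05). Hmox1, which degrades heme, had effects of -0.27 and 0.27 with overlap at 20% and an adjusted p of 0.0499 there, close to the threshold. Slc7a11, the cystine carrier of the same list, did not turn sign and rose at both levels (0.34 and 0.90).

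**Figure D5:**
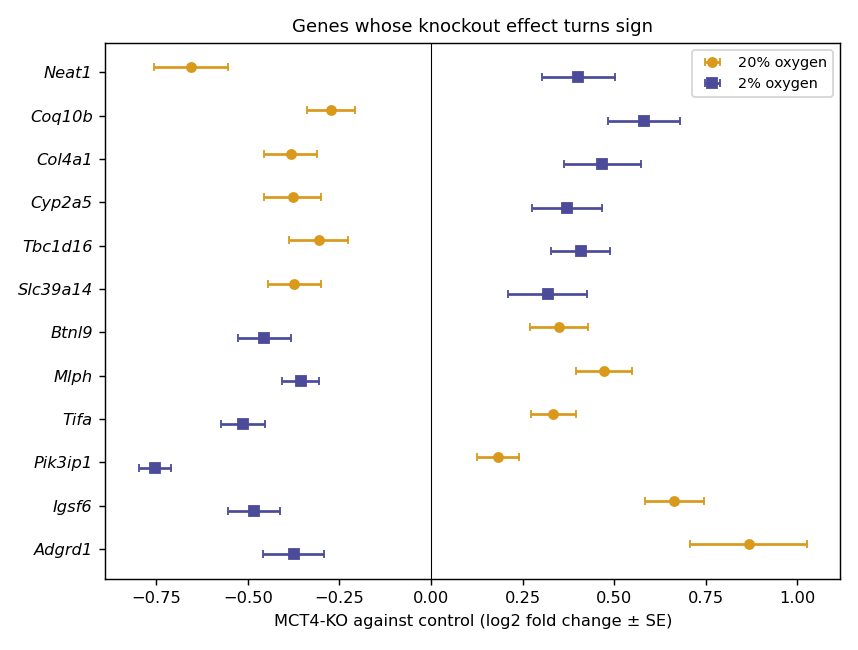
Knockout log2 fold change ± SE from edgeR at 20% oxygen (orange circles) and at 2% (purple squares) for the 12 genes of opposite sign chosen by size of interaction. In every row the markers lie on opposite sides of 0; Neat1 to Slc39a14 were lower at 20% and higher at 2%, and Btnl9 to Adgrd1 the reverse.

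Of the 85 genes of equal sign, 16 rose more and 48 fell more at 2% than at 20% oxygen, while 12 rises and 9 falls were smaller at 2%. At 20% oxygen Slc7a11 read 65.1, 64.3, 67.2 and 71.4 CPM in the controls against 89.8, 86.3, 81.9 and 80.8 CPM in the knockout, and at 2% it read 8.25, 9.37, 6.79 and 6.04 CPM against 15.5, 14.1, 14.1 and 13.6 CPM. Both pairs of groups were apart, at levels lower at 2% by about an order of magnitude in controls and several times in the knockout. The fitted effect went from 0.34 ± 0.059 at 20% to 0.90 ± 0.097 at 2% on the log2 scale, and the interaction was 0.57 ± 0.11 (adjusted p = 0.00114). Bcat1, which transfers the amino group of branched-chain amino acids, had effects of 0.51 and 1.17, Pspc1, a paraspeckle protein, 0.17 and 0.69, Plek (pleckstrin) 0.11 and 0.53 and Foxred2 0.42 and 0.83. Sat1, which acetylates spermine and spermidine, had 193, 188, 183 and 176 CPM in the controls and 153, 153, 156 and 163 CPM in the knockout at 20% oxygen, with 418, 420.4, 434 and 503 CPM and 246, 259, 243 and 256 CPM at 2%. The knockout was below the controls in every library at both levels. On the log2 scale the effect was -0.24 ± 0.049 at 20% and -0.82 ± 0.048 at 2%, which differed by -0.58 ± 0.069 (adjusted p = 1.43e-05). Among the genes lowered more at 2% were also Ypel3 (-0.20 and -0.77), Fgfbp3 (-0.42 and -0.97), Prkcz, an atypical protein kinase C (-0.19 and -0.72), Arl4a (-0.29 and -0.75) and Foxo1, a transcription factor held back by Akt (-0.30 and -0.73). Rises that shrank at 2% included those of Mpo, Tns1 (0.91 and 0.32), Ptgs1, cyclooxygenase 1 (0.69 and 0.16), Pmp22 (0.86 and 0.47) and Plscr3 (0.59 and 0.25), and the call of Pmp22 was lost in 1 of the 16 fits that left out a library (up to adjusted p = 0.0530 without 20% knockout replicate 3). Falls that shrank were those of Lgals3, galectin 3 (-0.68 and -0.33), Proser2 (-1.45 and -0.52) and Skida1 (-0.70 and -0.27). Stc1, Basp1 and Aplp1 also met this rule, but limma-voom called none of their interactions (adjusted p = 0.128, 0.160 and 0.0556) and leaving out single libraries ended each call: Stc1 (10 of 16, up to adjusted p = 0.158 without 20% control replicate 4), Basp1 (9 of 16, up to adjusted p = 0.135 without 20% control replicate 4) and Aplp1 (3 of 16, up to adjusted p = 0.0606 without 20% knockout replicate 4).

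Some genes that respond to glucose, lactate or the fusion had knockout effects whose difference was not called. Txnip, the glucose-responsive thioredoxin inhibitor, stood at 263, 254, 268 and 265 CPM in the controls and 211, 204, 197 and 203 CPM in the knockout at 20% oxygen, and at 278, 246, 256 and 254 CPM and 195, 203, 202 and 188 CPM at 2%. It was lower in the knockout in every library at both levels. The effects were -0.37 ± 0.038 at 20% and -0.39 ± 0.038 at 2%, and their difference had a 95% interval of -0.14 to 0.089 (adjusted p = 0.799). Hoxa9 and Meis1, transcription factors kept active by MLL fusions, fell at 20% by 0.23 and 0.20 and at 2% by 0.16 and 0.34. Intervals of the difference were -0.012 to 0.15 for Hoxa9 and -0.29 to 0.0096 for Meis1, and that of Meis1 was called without 2% control replicate 4 (adjusted p = 0.00410). Arrdc4, an arrestin regulated like Txnip, had effects of -0.29 and -0.21 (interval of the difference -0.11 to 0.28), and Vegfa, a HIF target, -0.10 and -0.017 (-0.040 to 0.21). For Ldha, lactate dehydrogenase A, which has near-identical copies and is uncertain, the effects were -0.20 and -0.0088 and the interval 0.031 to 0.35 (adjusted p = 0.0783), with a call when scaled by library size (adjusted p = 0.0447), with no filter on low counts (adjusted p = 0.0272), without 20% control replicate 3 (adjusted p = 0.0309) or without 20% knockout replicate 4 (adjusted p = 0.0181).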

How the data were processed

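RNA from 16 libraries of a mouse MLL-AF9 leukemia line was sequenced, 4 for each of 2 genotypes at 2 oxygen levels. The authors deposited estimated counts per gene, 1 column per library. The tools named in the submitters' processing notes are HISAT2 and RSEM, with the mm10 build. Versions, annotation release and strand setting are not given in the sources used. Among the deposited values 10.1% were not whole, and all were rounded first.

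Genes were filtered with filterByExpr, libraries scaled by TMM, and 1 mean per group fitted in edgeR 4.0.16 (R 4.3.3) with quasi-likelihood tests and 12 residual degrees of freedom, over all 16 libraries. P-values were Benjamini-Hochberg adjusted over all 13774 genes tested, which held 99.94% of counts, and a gene was called at an adjusted p under 0.05. Knockout was compared with control at each oxygen level, and the interaction is the difference of these log2 fold changes. Both knockout effects enter the interaction, so they are not independent of it. Levels are CPM scaled by TMM. With 21192179 to 28871459 counts per library, a floor of 3 counts was 0.124 CPM on average, and SD and SE cover the spread between libraries. The biological coefficient of variation was 4.61%. Symbols came from GENCODE vM21 (53620 of 53801 IDs matched), promoters from RefSeq on GRCm38.p6.

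The interaction, the gene lists and the members were chosen with earlier results of these data known. Named genes were 12 reported whatever their result, the 6 with the largest interaction in each class with an average log2 CPM of 3 or higher (without predicted genes, Y-linked genes and Xist), and up to 5 members per list with the smallest adjusted p. The others were chosen after their values were seen, and a few items are not reported here. The script was tested on simulated data, where 6 of 126 interaction calls were false. Those counts took the variation of each gene from its level alone and few genes were changed, so this share need not hold in the real libraries. Alternatives were DESeq2 size factors, library size scaling, other filters, DESeq2 1.42.0, limma-voom (limma 3.58.1), a replicate block, a minimum fold of 1.2, separate fits of each oxygen level and leaving out each library.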

Additional observations from a re-analysis of the deposited data

Results flagged for a closer look

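The test of the interaction itself found knockout effects that differed between 20% and 2% oxygen in 3155 genes, and 171 of these were called at both levels with opposite signs.

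In each group of 4 libraries a single library could stand far from the other 3, judged by the gap to its neighbour over the range of the group (beyond Dixon's 95% critical value). Of 668 groups examined 27 passed it, and chance gives about 1 in 20. Standing above the rest of 20% controls were Spp1 in replicate 1 (23.8 CPM against 18.8 to 19.3, ratio 0.895), Nkg7 in replicate 1 (3.69 CPM against 2.95 to 3.02, ratio 0.906) and Srxn1 in replicate 2 (30.3 CPM against 28.03 to 28.3, ratio 0.87). Standing below the rest of 20% controls were Mxd4 in replicate 3 (61.1 CPM against 67.0 to 67.1, ratio 0.986), Mdn1 in replicate 2 (58.4 CPM against 89.4 to 94.5, ratio 0.858) and Mettl18 in replicate 3 (8.94 CPM against 10.97 to 11.3, ratio 0.846). Standing above the rest of the 20% knockout were Emb in replicate 1 (376 CPM against 362 to 364, ratio 0.902), Rps27l in replicate 4 (85.5 CPM against 82.4 to 82.8, ratio 0.887) and Max in replicate 1 (95.4 CPM against 91.6 to 91.9, ratio 0.923). In the 20% knockout the values above the others were also those of Stard8 in replicate 3 (9.30 CPM against 8.13 to 8.24, ratio 0.902) and Ighm in replicate 2 (36.3 CPM against 34.3 to 34.4, ratio 0.954). Standing below the rest of the 20% knockout were Spns3 in replicate 1 (15.6 CPM against 16.6 to 16.7, ratio 0.872), Cyp2a5 in replicate 2 (18.001 CPM against 20.4 to 20.8, ratio 0.863) and Mrpl9 in replicate 1 (90.4 CPM against 97.5 to 97.7, ratio 0.983). Standing above the rest of 2% controls were Psmb9 in replicate 4 (60.8 CPM against 46.8 to 48.6, ratio 0.874), Fdps in replicate 4 (566 CPM against 496 to 507, ratio 0.835) and Ms4a3 in replicate 4 (397 CPM against 345 to 346, ratio 0.981). Standing below the rest of 2% controls were Thbs1 in replicate 4 (7.68 CPM against 9.16 to 9.24, ratio 0.949), Ndrg1 in replicate 1 (297 CPM against 316 to 318, ratio 0.912) and Elane in replicate 1 (3597 CPM against 3843 to 3876, ratio 0.883). In 2% controls the values below the others were also those of Mcm2 in replicate 4 (212 CPM against 236 to 237, ratio 0.957) and Pecam1 in replicate 4 (267 CPM against 297 to 301, ratio 0.898). Standing above the rest of the 2% knockout were Pde9a in replicate 3 (10.4 CPM against 9.44 to 9.58, ratio 0.845) and Stard8 in replicate 2 (10.6 CPM against 9.13 to 9.28, ratio 0.895). Standing below the rest of the 2% knockout were Hsp90ab1 in replicate 4 (5083 CPM against 5263 to 5281, ratio 0.909) and Klf2 in replicate 3 (34.0 CPM against 35.3 to 35.5, ratio 0.87). Among library totals, replicate 1 of the 20% knockout held 21565326 estimated counts, against 25052779 to 25281670.0 in the other 3 (ratio 0.938). Of these values 6 belonged to 2% control replicate 4 and 5 to 20% knockout replicate 1. No explanation of these values was tested.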

How the results depend on the processing

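Across other scalings, filters and tests the number of genes with a called interaction ran from 2964 with no filter on low counts to 3236 with at least 1 CPM in 8 libraries, and no called gene changed its sign. DESeq2 called 3039 genes and limma-voom 3112, of which 2898 and 3050 were among the 3155. Scaling by library size shifted the median interaction of all genes from 0.0043 to 0.031 and the share of positive calls from 50.6% to 60.1%. A minimum fold of 1.2 left 289 genes, 149 positive and 140 negative. They divided into 196 called at 2% only, 14 at 20% only, 1 of opposite sign, 3 of equal sign and 75 with neither effect called. By construction this asks for larger differences, and counts in the gene lists fell with it. Leaving out 1 library at a time gave 2635 to 3339 called genes (1332 to 1662 positive, 1294 to 1677 negative). Genes called at 2% only ran from 2007 to 2458, at 20% only from 183 to 372, of opposite sign from 97 to 238, of equal sign from 44 to 103 and with neither effect called from 190 to 252. The count of equal sign was 44 without 20% knockout replicate 2, 53 without 20% control replicate 1, 54 without 20% knockout replicate 3 and 55 without 2% knockout replicate 3. Txnip, whose interaction was not called, turned to 0.0040 when scaled by library size and ran from -0.044 to 0.013 when single libraries were left out, above 0 only without 2% control replicate 1. The cause of these changes was not tested. The replicate numbers were not taken as pairs. Deviations of same-numbered libraries correlated by -0.299 to 0.412 over 24 pairs, 4 of them above 0.1, of which 3 (0.222, 0.412 and 0.311) joined the 20% knockout and 2% controls. The last pair of these groups had 0.0940, and between the groups the same number was the best match in 3 of 4. With the replicate block 2781 genes were called and the count of equal sign was 56, against 85. With each oxygen level fitted alone for its knockout effect, 124 genes had opposite signs. Small differences were often missed in simulated counts, which took the variation of each gene from its level alone. In simulated counts for the interaction over 13639 genes, 35.4% of genes changed by 1.2-fold were called and 68.0% of those changed by 1.5-fold, and among genes with an average log2 CPM of 3 or higher 44.7% and 96.97%.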

Other observations

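Many DNA replication genes were higher in the knockout, 32 of 53 at 2% oxygen and 20 at 20%, beside 19.4% and 4.96% of all genes, with 1 and 0 lower. Of 53 replication genes 11 had a positive and 3 a negative interaction, and of 43 mitosis genes 0 and 7, beside 11.6% and 11.3% of all genes tested. The helicase subunit Mcm2 was at 231 ± 12.5 CPM in 2% controls and 298 ± 4.49 CPM in the 2% knockout (SD, n = 4), with knockout log2 fold changes of 0.10 at 20% and 0.37 at 2%. Ccne1, the cyclin of S phase entry, had effects of 0.047 and 0.50 in the same order. Tk1 (thymidine kinase) and Prim2 (a primase subunit) were instead raised at 20% alone, with effects of 0.32 and 0.0034 for Tk1 and of 0.19 and -0.063 for Prim2. In mitosis the kinetochore gene Nuf2 was lower at 2% alone (0.12 and -0.13) and the kinase gene Aurkb higher at 20% alone (0.15 and -0.030). Cdkn1b, the inhibitor p27 of cyclin-dependent kinases, fell at both levels and further at 2% (-0.17 ± 0.042 and -0.55 ± 0.042, interaction adjusted p = 1.33e-04 in edgeR). Mitochondrial ribosomal protein genes had 14 positive and 2 negative interactions among 79 (4 negative without 20% knockout replicate 1 and with at least 1 CPM in 8 libraries), led by Mrps10 (-0.14 and 0.29).

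Of 29 immediate early genes 5 had a positive interaction and 1 a negative one, against 11.6% and 11.3% of all genes. At 20% oxygen Egr1, a serum-induced transcription factor, read 4.32, 3.95, 4.40 and 3.73 CPM in the controls against 3.52, 2.59, 2.54 and 3.99 CPM in the knockout, and at 2% it read 0.735, 0.907, 0.519 and 0.640 CPM against 1.42, 1.201, 1.32 and 1.97 CPM. The groups overlapped at 20% and were apart at 2%, with effects of -0.38 ± 0.16 and 1.06 ± 0.24 (interaction adjusted p = 0.00102 in edgeR). Jund turned sign (-0.16 and 0.13), and Klf2 was lower at 20% alone (-0.35 and 0.093). Of 25 genes of the unfolded protein response 7 were positive and 1 negative (0 to 2 negative when single libraries were left out), among the positive ones the chaperone gene Hspa5 (-0.051 and 0.30) and the transcription factor gene Ddit3 (-0.052 and 0.39), both raised at 2% alone. Receptors for growth factors and cytokines had 7 negative and 1 positive interactions among 25. Of these the tumor necrosis factor receptor gene Tnfrsf1a was lower at 2% alone (0.098 and -0.27), and Tgfbr2, a receptor for transforming growth factor beta, was higher at 20% alone (0.25 and -0.069).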
